A study of Mus musculus with 3 samples.

Results

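Of the 3689577 nucleosome positions called on mouse autosomes on culture day 0, 115891 were kept on all days, meaning that the lists of day 1 and of day 2 both held a centre within 20 bp of the day 0 centre on the same chromosome. This is 3.14% of the day 0 positions (exact Clopper-Pearson 95% interval 3.12 to 3.16%). When the day 1 list was shifted by 1000 bp and the day 2 list by 2000 bp before matching, 60654 day 0 positions met the rule, which is 1.64% (1.63 to 1.66%). The shifted lists keep the density and the spacing of the wider region, but not the places of positions or the density at each place. Their number is 52.3% of the kept number, and 55237 positions lie above it. Matches that come from the density at the place itself are still among these. The members were chosen by the centres in all 3 lists, so these counts describe the choice and are no finding.

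The libraries came from erythroblasts, the nucleated precursors of red blood cells, obtained from the livers of 6 mouse fetuses. All cells lacked Ter119, a surface protein of later erythroid stages, at the start, and grew in IMDM medium supplemented with insulin, BSA (1%), erythropoietin (2 U/ml), the hormone of red cell formation, and fetal bovine serum (10%). The groups are culture day 0, culture day 1 and culture day 2, with 1 library each. Strain, genotype and fetal age were not given in the sources used here, nor whether 1 culture was sampled on all days. The labels name the fetuses together and not per library, so each value describes 1 library and no test between days was made.

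A nucleosome is DNA wrapped around a core of histone proteins, and micrococcal nuclease cuts the linker DNA between nucleosomes, so that the protected pieces show where nucleosomes sat. In many cell types the start of an active gene is depleted of nucleosomes and is flanked by well placed ones, of which the first inside the gene is called the +1 nucleosome, and others follow at regular distances. During terminal erythropoiesis the nucleus condenses and is finally expelled, while the genes of hemoglobin and the red cell membrane stay in use. Nucleosome positions carry no expression level, so the labelled cell type could not be checked against marker levels here. The libraries are bulk, so a position held by few cells and a position held loosely by all of them cannot be told apart.

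Promoter sequence was at hand for 16457 of 20560 autosome protein-coding genes. In 364 of these genes, 366 kept positions had their whole 140 bp footprint in the 300 bp promoter sequence, and 11 of those had exactly the same centre on all 3 days. The 6 shown here are those of the 11 at named genes with the highest lowest-of-3-days summit value. They are shown because no base separates their listed centres over the 3 libraries. Many listed centres lie on steps of 10 bp, as all 6 shown here do. An equal centre can thus mean the same step and not agreement to the base. The sequences are the 250 bases before the gene start from RefSeq (build GRCm38.p6, with the same coordinates as mm10), written 5′ to 3′ on the strand of the gene, and the capitals mark the 140 bp footprint.
Scn4a: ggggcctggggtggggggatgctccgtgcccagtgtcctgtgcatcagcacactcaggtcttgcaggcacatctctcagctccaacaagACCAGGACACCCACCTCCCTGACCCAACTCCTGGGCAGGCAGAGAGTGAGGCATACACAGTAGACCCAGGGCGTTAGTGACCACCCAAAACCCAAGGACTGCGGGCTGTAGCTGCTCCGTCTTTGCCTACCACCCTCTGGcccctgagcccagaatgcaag
Capn1: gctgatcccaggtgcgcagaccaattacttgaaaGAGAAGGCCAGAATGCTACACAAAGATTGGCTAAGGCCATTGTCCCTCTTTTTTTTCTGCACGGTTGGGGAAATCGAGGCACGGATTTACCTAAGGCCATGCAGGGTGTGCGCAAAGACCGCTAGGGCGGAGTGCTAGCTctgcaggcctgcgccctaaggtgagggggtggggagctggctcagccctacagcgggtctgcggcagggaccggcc
Efs: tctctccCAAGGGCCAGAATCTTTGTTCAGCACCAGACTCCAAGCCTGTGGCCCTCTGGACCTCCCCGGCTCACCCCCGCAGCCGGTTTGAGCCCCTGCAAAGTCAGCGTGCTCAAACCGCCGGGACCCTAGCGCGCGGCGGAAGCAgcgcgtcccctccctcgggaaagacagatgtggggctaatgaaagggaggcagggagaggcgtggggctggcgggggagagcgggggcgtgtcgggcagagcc
Gata2: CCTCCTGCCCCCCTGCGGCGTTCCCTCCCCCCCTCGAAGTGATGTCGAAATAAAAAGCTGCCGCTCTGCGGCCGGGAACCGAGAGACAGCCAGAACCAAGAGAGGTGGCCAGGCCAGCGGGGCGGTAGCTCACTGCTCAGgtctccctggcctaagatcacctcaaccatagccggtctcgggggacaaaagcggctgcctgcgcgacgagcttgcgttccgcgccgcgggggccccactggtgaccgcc
Ubtf: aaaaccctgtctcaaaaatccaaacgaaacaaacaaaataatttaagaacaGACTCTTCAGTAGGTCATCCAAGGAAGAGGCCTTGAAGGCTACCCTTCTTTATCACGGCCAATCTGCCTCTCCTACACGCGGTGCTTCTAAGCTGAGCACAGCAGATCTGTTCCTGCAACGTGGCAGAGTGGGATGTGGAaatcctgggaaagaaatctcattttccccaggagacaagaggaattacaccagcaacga
Fnbp1: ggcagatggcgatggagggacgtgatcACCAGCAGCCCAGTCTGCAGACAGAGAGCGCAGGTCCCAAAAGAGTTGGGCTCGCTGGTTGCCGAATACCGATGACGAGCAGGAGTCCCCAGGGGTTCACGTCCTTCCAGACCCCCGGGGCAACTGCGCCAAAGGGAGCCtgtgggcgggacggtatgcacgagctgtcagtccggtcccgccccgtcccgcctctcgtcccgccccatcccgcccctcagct
The Scn4a sequence is chr11:106349391-106349640 on the minus strand, with the centre 91 bp upstream of the start used. Scn4a encodes the sodium channel of skeletal muscle. The Capn1 sequence, of a calcium-dependent protease gene, is chr19:6015826-6016075 on the minus strand, with the centre 146 bp upstream. The Efs sequence, of a signalling adaptor gene, is chr14:54926789-54927038 on the minus strand, with the centre 173 bp upstream. The Gata2 sequence is chr6:88193641-88193890 on the plus strand, with the centre 180 bp upstream, and Gata2 encodes a transcription factor of blood progenitors. The Ubtf sequence, of a factor for transcription of ribosomal RNA genes, is chr11:102320863-102321112 on the minus strand, with the centre 129 bp upstream. The Fnbp1 sequence, of a membrane-bending protein gene, is chr2:31142009-31142258 on the minus strand, with the centre 153 bp upstream. The footprints at Scn4a, Ubtf and Fnbp1 lie inside the annotated span of their own gene, which begins further upstream than the start used. The footprints at Capn1 and Gata2 overlap the long noncoding RNA genes Gm10814 and Gm38708, and the footprint at Efs overlaps no annotated gene.

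The summit value is the authors' smoothed and scaled coverage at the centre of a position, and a higher value means more protected pieces there. At the Gata2 centre it was 9.15, 12.3 and 8.13 on days 0, 1 and 2. At the Ubtf centre it was 7.62, 9.71 and 11.3 on days 0, 1 and 2. The Gata2 centre was therefore highest on day 1, and the Ubtf centre was highest on day 2. At the Scn4a centre the values were 12.7, 11.1 and 11.6 on days 0, 1 and 2, which lie close together. The other members of the 6, Capn1, Efs and Fnbp1, had values between 7.51 and 12.2. Many day 0 values repeat on coarse steps, such as 7.62, 8.39 and 9.15, and the counting error of a single value is not known. Differences between days at a single place, here and below, therefore describe the listed values and were not tested.

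The footprints of kept positions were somewhat richer in G and C than the footprints of day 0 positions that were not kept, which come from the whole promoter table. The median GC share was 60% for the 366 kept footprints and 57.1% for the 5283 others, and the median CpG number was 7 for kept footprints and 5 for the others. The whole promoter sequences around them differed in the same direction, with a median of 61.5% GC and 19.5 CpG at kept footprints and 58% GC and 13 CpG at the others, and the part of the promoter in the footprint values was not tested. The share of the base steps AA, TT and TA was 10.8% in kept footprints and 12.2% in the others. The 147 footprints that met the rule with shifted lists also had a median GC share of 60% and 7 CpG. Short motifs were searched on both strands. CCAAT was found in 12.8% of kept footprints (95% interval 9.59 to 16.7%) and 17.1% of the others (16.1 to 18.1%), and the 300 bp promoter sequences held it in 39.1% of cases. GGGCGG, the GC box, was found in 32.2% of kept footprints and 28.5% of the others, and in 47.3% of promoters. GATAAG, the letters bound by GATA factors, was found in 1.91% of kept footprints and 2.86% of the others, and in 6.88% of promoters. CACCC was found in 41.3% and 41.5%, and TATAAA in 4.10% and 4.90%, of kept and other footprints. CACCC lies in 59.0% and TATAAA in 13.5% of promoters. None of these pairs of intervals lies fully apart, and a match of letters is not a bound site.

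The day 1 list alone held a centre within 20 bp for 13.7% of day 0 positions, against 10.5% when it was shifted. The day 2 list alone held one for 15.8%, against 12.2% when it was shifted. Each later day taken alone therefore gave 1.30 times the share of the shifted list, while both days together gave 1.91 times. Where the day 1 list held the position, the day 2 list held it in 23.0% of cases, and where the day 1 list did not hold it, in 14.7%. With shifted lists the same shares were 15.6% and 11.8%. Of all day 0 positions, 10.5% had a centre in the day 1 list only, 12.7% in the day 2 list only and 73.6% in neither. Seen from the later lists, the kept sets make up 3.91% of the day 1 positions and 2.64% of the day 2 positions on autosomes.

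The excess over shifted lists was found on every autosome. The kept share was 3.11 ± 0.535% (mean and SD over the 19 autosomes, a spread within the libraries and not between replicates), and the share with shifted lists was 1.62 ± 0.337%. Chromosome 11 had the highest kept share at 4.18%, and chromosome 18 the lowest at 2.29%. The ratio of the kept share to the shifted share was 1.94 ± 0.106 over the 19 autosomes. It lay between 1.74 on chromosome 8 and 2.10 on chromosome 16. Among positions at or below the median fuzziness of their list the ratio over all autosomes was 3.26, with 13311 kept.

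The excess was steepest at the smallest offsets. With the same centre on all 3 days there were 2168 positions, against 546 with shifted lists, which is 3.97 times. Where the larger of the offsets of day 1 and day 2 was 1 to 5 bp there were 12620 positions, against 5271, and at 6 to 10 bp 25285 against 12115. Just inside the limit, at 16 to 20 bp, there were 43921 positions against 25291 with shifted lists, a ratio of 1.74. Just outside, at 21 to 25 bp, there were 45960 against 29781, a ratio of 1.54. The median day 0 summit value was 8.39 just inside and 7.62 just outside, and the median fuzziness score was 52.2 and 52.0. The summit median showed no step at the limit, since it was also 7.62 at 11 to 15 bp and again 8.39 at 26 to 30 bp. The ratio went on falling outside the limit, to 1.37 at 31 to 40 bp, so the limit of 20 bp cuts through a gradual change.

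Within the kept set, the centres of day 1 and day 2 lay close to each other more often than the rule demands. The median distance between the day 1 and the day 2 centre was 10 bp in the kept set and 13 bp in the set found with shifted lists. The later centres lay on the same side of the day 0 centre in 53.6% of kept positions and 49.7% of positions found with shifted lists. The median absolute offset from day 0 was 10 bp for day 1 and for day 2.

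**Figure D1:**
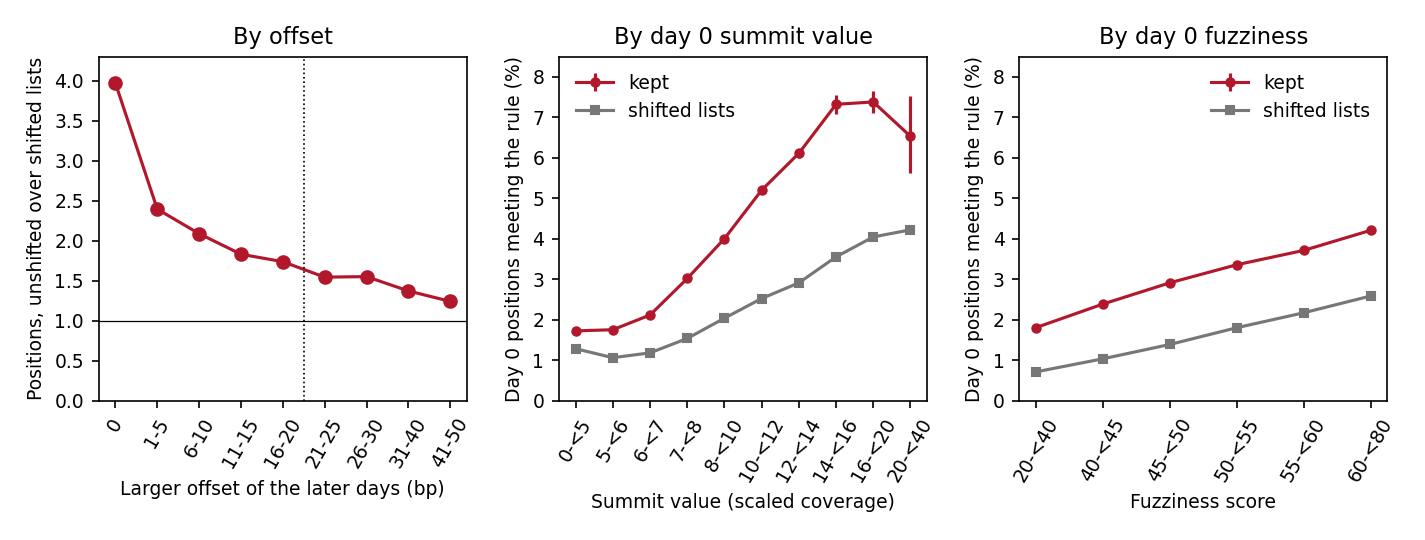
The left panel plots the number of day 0 positions divided by the number with shifted lists against the larger of the offsets on days 1 and 2, with the limit of 20 bp dotted; the middle and right panels plot the percent of day 0 positions kept (red, bars are exact 95% intervals) and meeting the rule with shifted lists (grey) by day 0 summit value and fuzziness score. The ratio is 3.97 at the same centre and 1.24 at 41 to 50 bp, and the kept share climbs with summit value to 7.38% before 6.53% in the last class.

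Kept positions carried more coverage than the lists they came from. Their median summit value was 8.39, 7.44 and 7.51 on days 0, 1 and 2, while the medians over all autosome positions were 7.62, 6.80 and 6.26. Among positions with a day 0 summit value of 14 to 16, 7.32% were kept, against 3.55% with shifted lists. Among those of 5 to 6, 1.75% were kept, against 1.06% with shifted lists. The share with shifted lists thus climbed too, and the ratio of the kept share to it was 1.34 in the lowest class, 2.10 at 12 to 14 and 1.55 at 20 or more.

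The fuzziness score measures the scatter of reads about a centre, and a lower score means a sharper position. Its median was 52.1, 55 and 52.4 on days 0, 1 and 2 at kept positions, against 51.1, 54.5 and 51.1 over all autosome positions. The sharpest positions, with a score below 40, were kept in 1.80% of cases, against 0.709% with shifted lists, a ratio of 2.54. The widest, with a score of 60 or more, were kept in 4.21% of cases, against 2.59% with shifted lists, a ratio of 1.63. The plain share and the ratio therefore run in opposite directions over the classes of fuzziness. Summit value and fuzziness come from the lists that the rule used, so they describe the members.

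Most kept positions stood alone, and some lay in rows. Of the kept positions, 101529 (87.6%) had no kept neighbour in the day 0 list, while 6400 pairs, 475 runs of 3, 33 runs of 4 and 1 run of 5 followed each other. With shifted lists there were 1979 pairs, 98 runs of 3, 4 runs of 4 and none of 5. Where the next day 0 position lay 140 to 169 bp further on, it was kept in 8.64% of cases after a kept position, against 4.04% after any other. With shifted lists these shares were 4.73% and 2.13%, so the share after a member was 2.14 times that after another position, and 2.22 times with shifted lists. The 509 runs of 3 or more had a median spacing of 205 bp (quartiles 170 and 277.5 bp), and 347 of them (68.2%) overlapped a protein-coding gene. Of all kept positions 61.4%, and of all day 0 positions 54.7%, lay inside such a gene, and a run reaches further than a single centre.

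The single run of 5 lies in Sppl3, the gene of a protease of the secretory pathway, on chromosome 5, with centres from base 115086091 to base 115086806 and a mean spacing of 178.75 bp. The summit values at base 115086091 were 8.39, 7.77 and 5.63 on days 0, 1 and 2, and those at base 115086673 were 4.57, 6.15 and 13.1. The row thus kept its places, while its heights differed between days in different directions along it. The rule for named runs also takes 5 runs of 4. One run lies in Dpp3, a dipeptidase gene on chromosome 19, from base 4910083 to base 4910516. Another lies 442 bp from Csf2rb, the gene of the shared beta chain of cytokine receptors, on chromosome 15 from base 78325171 to base 78325546, with a mean spacing of 125 bp. The other runs of 4 lie 471 bp from Nedd8, 8803 bp from Cmip and 137866 bp from the predicted gene Gm46911. Spacings as short as 125 bp are below the 140 bp width of a listed position, so neighbours of such a run overlap.

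The rule places a day 1 and a day 2 centre at each kept position, and centres of a list lie at least 100 bp apart, so the density of neighbours in the later lists depends on the choice of members and is given as a description. In the day 1 list, the density of positions 130 to 180 bp away from a kept day 0 centre was 1.47 times that at 500 to 990 bp, against 1.11 times around day 0 positions that were not kept. For positions that met the rule with shifted lists, measured in those shifted lists, it was 1.30 times. In the day 2 list the same ratios were 1.30 around kept positions, 1.08 around others and 1.18 with shifted lists. In the day 0 list itself they were 1.33, 1.29 and 1.24. A further maximum was looked for only from 320 to 460 bp. It lay at 400, 370 and 380 bp from kept positions in the lists of days 0, 1 and 2, at 1.04, 1.06 and 1.04 times the far density. With shifted lists it lay at 400, 370 and 410 bp, at 1.01, 1.01 and 1.02 times. An earlier and higher maximum lay at 250 bp from kept positions, with 4.47 positions per kb on day 0 and 4.60 on day 2. At 210 bp these densities were 4.09 and 4.17. Around day 0 positions that were not kept, the day 0 list also had more at 250 bp, 3.75, than at 210 bp, 3.34.

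Kept positions were more frequent near gene starts than elsewhere. Within 1000 bp of a gene start, 6331 of 89713 day 0 positions were kept, which is 7.06% (95% interval 6.89 to 7.23%), against 3.04% elsewhere on the same autosomes. With shifted lists the shares were 2.70% and 1.62%. The kept share near starts was thus 2.32 times that elsewhere, and with shifted lists 1.66 times. Among positions with summit values of at least 10 it was 3.95 times, and among those at or below the median fuzziness 4.35 times. The ratio of kept to shifted share was 2.65 ± 0.281 near starts and 1.90 ± 0.106 elsewhere (SD over the 18 autosomes with promoter entries, chromosome 18 having none). Near gene ends, where transcription stops, 4.78% were kept, against 2.74% with shifted lists, a ratio of 1.74 that does not stand out from the rest of the genome.

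Within these windows the kept share followed the places at which nucleosomes line up along a gene. In steps of 20 bp it was highest from 300 to 319 bp inside the gene, where 188 of 1324 day 0 positions were kept, which is 14.2% (12.4 to 16.2%), against 2.11% with shifted lists. A further high point lay at 100 to 119 bp, with 185 of 1413 positions or 13.1% (11.4 to 15%), against 3.04%. Upstream, from 200 to 181 bp before the start, 92 of 858 positions were kept, 10.7% (8.73 to 13.0%), against 2.21%. The lowest value, 3.52% (2.22 to 5.28%), lay 40 to 21 bp before the start. The shares with shifted lists lay between 0.964% and 4.20% over all steps, without such high points. The shift itself moves the later lists away from these places, so this flatness cannot show the part of local density.

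**Figure D2:**
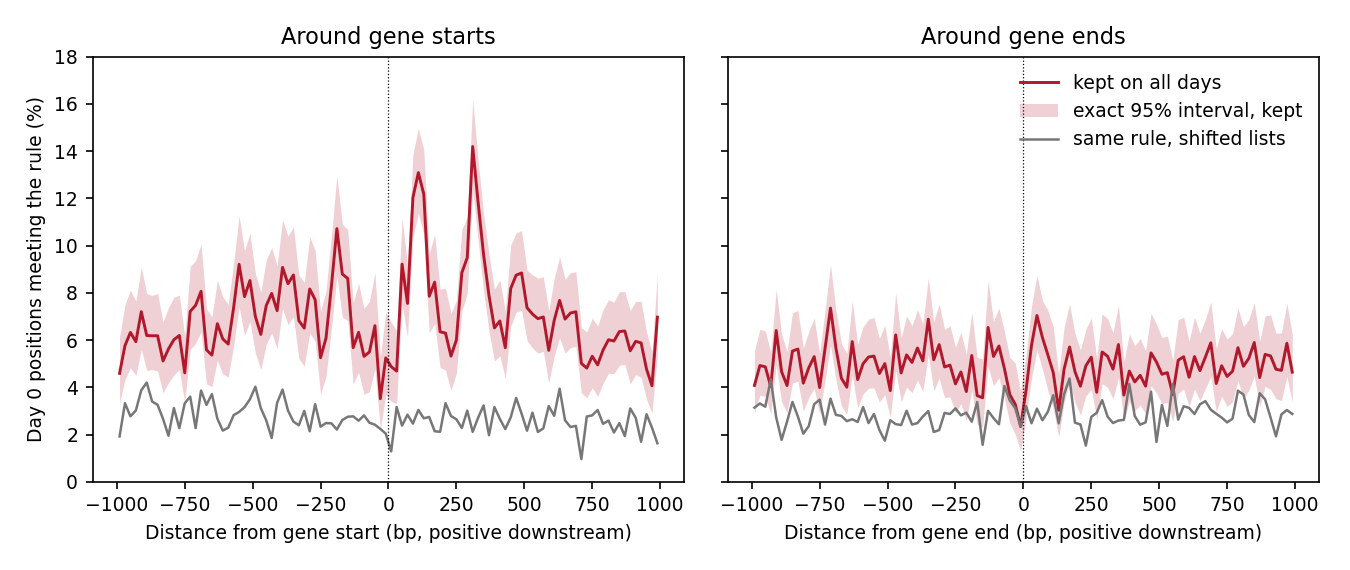
The percent of day 0 positions that were kept (red line, shaded exact 95% interval) and that met the rule with shifted lists (grey line) is plotted in steps of 20 bp against the distance in bp from gene starts (left) and gene ends (right), positive downstream. Around starts the red line has high points of 10.7% upstream and 13.1% and 14.2% downstream, and no such comb is seen around gene ends.

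Zones were laid over these high points after the profile had been seen, and a position near the starts of several genes counts once for each. In the zone of the +1 nucleosome, 60 to 159 bp inside the gene, 690 of 6417 positions were kept, 10.8% (10.0 to 11.5%), against 2.76% with shifted lists. The mean over 18 autosomes was 10.8 ± 1.94%, and the kept share was above the shifted share on 18 of 18. In the zone of the next nucleosome, 260 to 379 bp inside, 797 of 7628 or 10.4% were kept, against 2.58% with shifted lists. In the zone after that, 450 to 549 bp inside, 7.95% were kept, against 2.76%, and in the zone upstream of the start, from 220 to 131 bp before it, 8.78%, against 2.55%. Between the first and the next nucleosome, at 160 to 259 bp, 6.51% were kept, and across the start itself, from 130 bp before to 29 bp after, 5.28%. Far from the start, 5.91% were kept at 1000 to 801 bp upstream and 5.81% at 800 to 1000 bp downstream.

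The density of listed positions also differed between the zones, in part along with these shares. In the +1 zone the lists held 1.38, 1.66 and 1.39 times as many positions per base as the far zones on days 0, 1 and 2, and in the next zone 1.36, 1.59 and 1.38 times. Across the start they held 0.708, 0.785 and 0.794 times as many. In the zone upstream of the start they held 0.906, 0.994 and 0.984 times as many, although its kept share was above that of the far zones. Between the first and the next nucleosome they held 0.936, 1.17 and 1.01 times as many. The part of this density in the kept share was not tested, since the shifted lists carry the density of places 1000 and 2000 bp away.

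Genes that kept their +1 position kept the next one more often as well. Where a gene had day 0 positions in both zones, the +2 position was kept in 92 of 510 genes with a kept +1 position, 18% (14.8 to 21.7%). It was kept in 391 of 3675 genes whose +1 position was not kept, 10.6% (9.66 to 11.7%). With shifted lists the counts were 4 of 127 and 111 of 4058, 3.15% (0.865 to 7.87%) and 2.74% (2.26 to 3.28%). The first of these rests on 4 genes, and the shifted lists carry positions from outside these zones. The kept shares of both zones also differ with the CpG number of the promoter, as given below, and its part was not tested. A kept position in each of the first 3 zones inside the gene was found in 6 genes, named here after their values were seen. They are Tpgs1, Ykt6, Bcas3, Zfpl1, Plgrkt and Tmem87b, of which Ykt6 encodes a membrane fusion protein and Plgrkt a receptor for plasminogen.

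The share kept near starts went with the CpG number of the promoter. CpG-rich promoters are typical of genes used in all cell types. In the +1 zone of the 5352 promoters with 22 or more CpG in their 300 bp, 13.2% of positions were kept (11.9 to 14.5%), against 2.89% with shifted lists. With 15 to 21 CpG it was 13.5%, with 9 to 14 CpG 10.7% and with 4 to 8 CpG 5.26%. In the 3948 promoters with 0 to 3 CpG it was 3.21% (2.04 to 4.77%), against 1.12% with shifted lists. Upstream of the start the share was 12.1% at 22 or more CpG, 11.3% at 15 to 21 and 3.01% at 0 to 3. In the +2 zone these shares were 11.9%, 13.2% and 3.59%. The shifted shares in the +1 zone lay between 2.79% and 3.26% from 4 CpG upwards. The ratio of kept to shifted share there was 4.56 in the CpG-richest class, 4.14 at 15 to 21 CpG, 3.82 at 9 to 14, 1.80 at 4 to 8 and 2.88 in the CpG-poorest class, which had 23 kept positions.

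**Figure D3:**
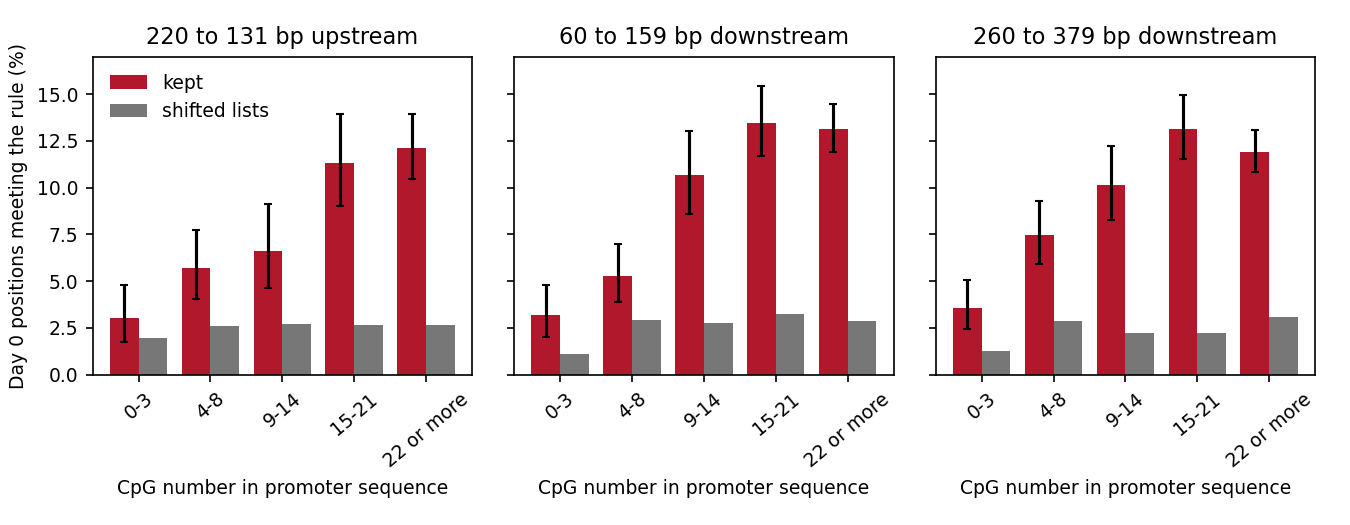
Bars give the percent of day 0 positions kept (red, with exact 95% intervals) and meeting the rule with shifted lists (grey) by the number of CpG in the 300 bp promoter sequence, in 3 zones around the gene start. Kept shares in the +1 zone are 13.2% in the CpG-richest class and 3.21% in the CpG-poorest.

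Kept positions were concentrated in gene-rich regions, but there the shifted lists matched often as well. In 100 kb bins with 14 or more protein-coding genes in the surrounding 1 Mb, 66816 of 1472082 day 0 positions were kept, 4.54%, against 2.54% with shifted lists. In bins with at most 1 gene, 1050 of 172066 were kept, 0.610% (0.574 to 0.648%), against 0.194% with shifted lists. The kept share of gene-rich bins was thus 7.44 times that of gene-poor bins, and with shifted lists 13.1 times. With summit values of at least 10 the kept shares differed by 11.4 times. Gene-rich bins held 57.7% of all kept positions and 39.9% of all day 0 positions. The ratio of kept to shifted share was 1.79 in gene-rich bins and 3.15 in gene-poor bins, with 2.03, 2.11 and 2.35 in the classes between, from more to fewer genes. Inside genes and away from starts the kept share was 3.40%, and outside genes 2.61%, with ratios of 1.82 and 1.96 to the shifted shares.

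Of the 16457 genes with a start, 5126 had at least 1 kept position within 1000 bp, which is 31.1%, against 2253 or 13.7% with shifted lists. At least 2 kept positions were found in 1405 genes, against 299, at least 3 in 280, against 27, and at least 4 in 48, against 1. Neighbouring genes can share a position, since their windows can overlap. By the rule for named genes, the 12 genes with most kept positions were taken, ties going to the higher share of day 0 positions kept and then to the higher summed day 0 summit value. Med20 and the predicted gene Gm20517, with 6 kept positions each, start within 5 kb of Bysl and share its positions, so the rule leaves them out.

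Bysl, a factor for the assembly of the small ribosomal subunit on chromosome 17, kept 6 of 8 day 0 positions, and Plgrkt on chromosome 19 also kept 6 of 8. Scn4a and E2f1 kept 5 of 9 each, Tbx21, the gene of a T cell transcription factor, 5 of 10 and Hcrt, the gene of the neuropeptide orexin, 5 of 11. Msi2, the gene of an RNA-binding protein of stem cells, kept 4 of 5 and Nme6, a nucleoside diphosphate kinase gene, 4 of 6. Kifc1, the gene of a spindle motor protein, Rexo1, an exonuclease gene, and Ggta1, the gene of a sugar transferase, kept 4 of 7 each. Cenpm, the gene of a centromere protein, kept 4 of 8. Genes of the dividing cell and genes of other tissues thus stand side by side in this group. In Hcrt, Msi2 and Rexo1 the shifted lists gave 1 position each, and in the other 9 none.

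At E2f1, the gene of a transcription factor that drives entry into DNA synthesis, the kept centres lay 990 bp upstream and 360, 550, 740 and 910 bp inside the gene. The last 4 thus form a nearly regular row. At 360 bp the summit value was 12.2, 7.12 and 9.38 on days 0, 1 and 2, and at 550 bp it was 7.62, 13.6 and 8.13. At 740 bp it was 9.15, 10.4 and 12.5, and at 910 bp 8.39, 7.44 and 10.0. Each of the 4 places had another order of days in its listed values, with 1 library per day. At Kifc1 all 4 kept centres lay inside the gene, at 112, 472, 692 and 842 bp. The position at 472 bp had summit values of 16.8, 8.09 and 5.63 on days 0, 1 and 2, the position at 112 bp 13.2, 16.2 and 10.5.

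At Plgrkt the kept centres lay 985 and 162 bp upstream of the start used and 92, 295, 495 and 910 bp downstream of it. The annotated span of Plgrkt begins further upstream and holds all of these centres. At 92 bp the summit value was 7.62, 7.12 and 8.13 on days 0, 1 and 2, and at 295 bp it was 9.15, 9.71 and 11.9. At 92 bp the days thus lay close together, while at 295 bp the values of days 1 and 2 were above the upper quartiles of all kept positions, 9.39 and 9.38. At Bysl the kept centres lay 929, 719, 535 and 199 bp upstream and 691 and 856 bp inside. The position at 535 bp upstream had summit values of 6.10, 5.83 and 20.6, and the position at 199 bp upstream 15.8, 11.5 and 9.86. Near the same start, 1 position was thus highest on day 2 and another on day 0.

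**Figure D4:**
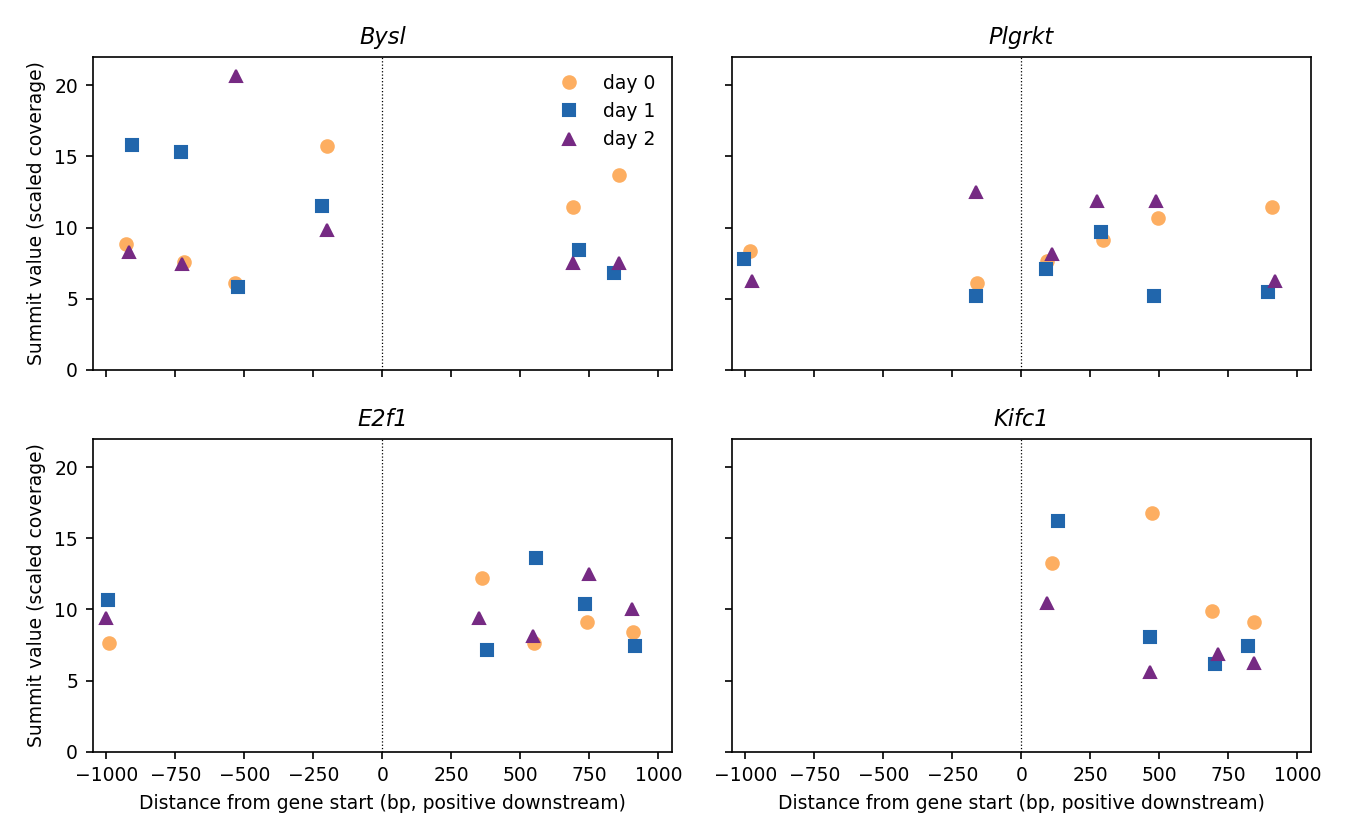
Summit values (scaled coverage) of the kept positions within 1000 bp of the starts of Bysl, Plgrkt, E2f1 and Kifc1 are plotted against the distance of each day's centre from the gene start in bp, for day 0 (circles), day 1 (squares) and day 2 (triangles). Centres of the 3 days lie within 20 bp of the day 0 centre by the rule, while the summit values of 1 place differ between days, as at 535 bp upstream of Bysl with 6.10, 5.83 and 20.6.

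Many starts rich in positions kept none, though a smaller share than of all starts. Of 2060 genes with 10 or more day 0 positions in the window, 915 (44.4%) kept none. Of the 14968 genes with at least 1 day 0 position there, 65.8% kept none, and of those with 5 or more, 56.7%. A start with more positions has more chances to keep 1, and 7.23% of positions near starts were kept over all genes. The share with none that follows from these numbers alone was not computed, so the shares describe no trait of the genes. By the rule, the 5 such genes with most day 0 positions were Rusc1, Cnn2, Gdf15, Inafm2 and Padi3, each with 13 day 0 positions and 0 kept. Cnn2 encodes an actin-binding calponin, Gdf15 a stress-induced growth factor and Padi3 an enzyme that converts arginine in proteins to citrulline. With shifted lists these genes had 0 to 2 positions.

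Kept positions with high coverage on all days were found at genes and at predicted gene models. The 8 with the highest lowest-of-3-days summit value lay between 13.3 and 14.3 on their lowest day. The highest lies in Tmem267 on chromosome 13, centred at base 119601671, with summit values of 14.3, 16.8 and 19.2 on days 0, 1 and 2. One lies in Rnaseh2a, the gene of the catalytic subunit of ribonuclease H2, with 13.7, 13.8 and 14. One lies in Cyth3, the gene of an exchange factor of small GTPases, with 13.7, 14.4 and 14.5. Another lies 876 bp from Erbb3, a growth factor receptor gene, with 14.4, 14 and 13.5. The remaining 4 lie in or near the predicted gene models Gm40369, Gm21149, Gm17019 and Gm21083. Gm21149, Gm17019 and Gm21083 lie close together on chromosome 5, and whether their sequence is repeated was not tested.

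Among genes of the red cell line, the erythroid transcription factors kept 15 of 143 day 0 positions near their starts, 10.5% (5.99 to 16.7%), and 11 of 17 genes had at least 1. Over all genes 7.23% of positions near starts were kept, counting a position once for each gene, and 31.1% of genes had at least 1. The list had 4.90% with shifted lists, against 2.72% for all genes, and a median of 8 day 0 positions per start, against 6. Bcl11a, the gene of a repressor of fetal globin, and Zfpm1, the gene of a GATA cofactor, had 2 kept positions each, as had Lyl1 and Ldb1. At Klf1, the gene of an erythroid activator of globin genes, a position 341 bp upstream was kept, with summit values of 10.7, 10.4 and 5.0 on days 0, 1 and 2. At Gfi1b, a repressor gene needed for erythroid cells, a position 451 bp inside the gene had 15.2, 10.3 and 10.0. At Foxo3, a transcription factor gene of stress and maturation, a position 196 bp upstream had 7.47, 13.4 and 13.5. At Ldb1, the gene of a bridge between enhancers and promoters, a position 180 bp upstream had 8.25, 17.3 and 11. The Klf1 and Gfi1b positions were thus highest on day 0, and the Foxo3 position and this Ldb1 position were lowest on day 0. The other kept Ldb1 position, 692 bp upstream, had 7.62, 4.53 and 8.13 and was lowest on day 1. These places were named after their values were seen, and the kept positions of the list followed no single order of days.

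Over the whole span of these genes 5.21% of positions were kept, against 3.37% with shifted lists, and over all genes 3.54%, against 1.88%. Runx1 held 54 kept positions of 875, against 44 with shifted lists, and Stat5b 22 of 364, against 16. Klf3 held 11 of 106, against 1, and E2f2 14 of 122, against 7. Lmo2, the gene of a partner of Tal1, held 1 of 104, against 5 with shifted lists. Counts of single genes are small, so these values describe the genes and nothing was tested.

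The globin and heme genes kept 9 of 106 positions near starts, 8.49% (3.96 to 15.5%), against 1 with shifted lists, and 7 of 16 genes had at least 1. Over all genes 7.23% of such positions were kept, and 31.1% of genes had at least 1 of them. Urod and Uros, both genes of heme synthesis enzymes, had 2 each. At Uros these lay 501 and 346 bp upstream, and the position at 346 bp had summit values of 10.7, 8.42 and 7.51. At Cpox, another gene of heme synthesis, a position 173 bp inside the gene had 6.09, 14.8 and 9.87 on days 0, 1 and 2. In the spans of the 8 globin genes of the list no position was kept, of 3 to 8 day 0 positions per gene, and the near-identical copies Hba-a1 and Hba-a2 cannot be told apart by reads they share. A kept position lay 119 bp upstream of Hba-x, the embryonic alpha-like globin gene, with 10.7, 12.6 and 9.38. The theta globin genes Hbq1a and Hbq1b are not in the list, and each had 1 kept position within 1000 bp of its start, of 6 and of 8. For so few positions a share of 0 could not be told from the share of all genes.

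The red cell membrane genes kept 3 of 105 positions near starts, 2.86% (0.593 to 8.12%), against 4 with shifted lists. At least 1 was kept in 2 of 15 genes, against 31.1% of all genes. The 2 genes were Cd44, an adhesion receptor gene with 2, and Add1, the gene of a membrane skeleton protein. At Add1 the position 307 bp inside the gene had summit values of 5.68, 17.2 and 8.68 on days 0, 1 and 2. Over their whole spans these genes kept 4.65%, against 2.50% with shifted lists. The interval near starts holds both this value and the 7.23% of all genes.

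The cell cycle genes kept 21 of 163 positions, 12.9% (8.16 to 19%), against 2.45% with shifted lists, and 13 of 22 genes had at least 1. Over all genes 7.23% of such positions were kept, and 31.1% of genes had at least 1. The median start of the cell cycle list held 8 day 0 positions, against 6 over all genes. E2f1 led with 5 kept positions, and Aurka, the gene of a mitotic kinase, had 3. The genes of nuclear condensation and enucleation kept 14 of 128, 10.9% (6.11 to 17.7%), against 4.69%, led by Ncaph, the gene of a condensin subunit, with 3 of 8 positions. The cytosolic ribosomal protein genes kept 42 of 444, 9.46% (6.90 to 12.6%), against 4.28%, and 29 of 59 genes had at least 1, with 3 each at Rps15 and Rplp2. The progenitor genes kept 8 of 116, 6.90%, and the Hox genes 12 of 155, 7.74%, with 3 of 7 at Hoxd8. The replication-dependent histone genes kept 14 of 308, 4.55% (2.51 to 7.51%), against 3.90% with shifted lists, but these genes have near-identical copies. The lists differ in promoter type, with a median of 24 CpG in the cell cycle list, 22 in the ribosomal list, 18 in the erythroid factors, 9 in the globin and heme list and 8 in the membrane list. The part of CpG number in the differences between lists was not tested.

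Among genes of other cell types, the olfactory receptor list was long and the marker lists were short. The olfactory receptor genes, which serve the sense of smell, kept 25 of 1363 positions, 1.83% (1.19 to 2.70%), against 0.293% with shifted lists. Over all genes 7.23% were kept, against 2.72% with shifted lists. At least 1 was kept in 23 of 934 olfactory receptor genes, against 31.1% of all genes. The median olfactory receptor start held 1 day 0 position, against 6 over all genes, so there were fewer to keep. The median olfactory receptor promoter held 1 CpG. The macrophage list kept 2 of 64, the hepatocyte list 1 of 38, the lymphoid list 2 of 61, the megakaryocyte list 3 of 44 and the neural list 3 of 46. The intervals of the last 5 lists all hold the share of positions kept over all genes, 7.23%.

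**Figure D5:**
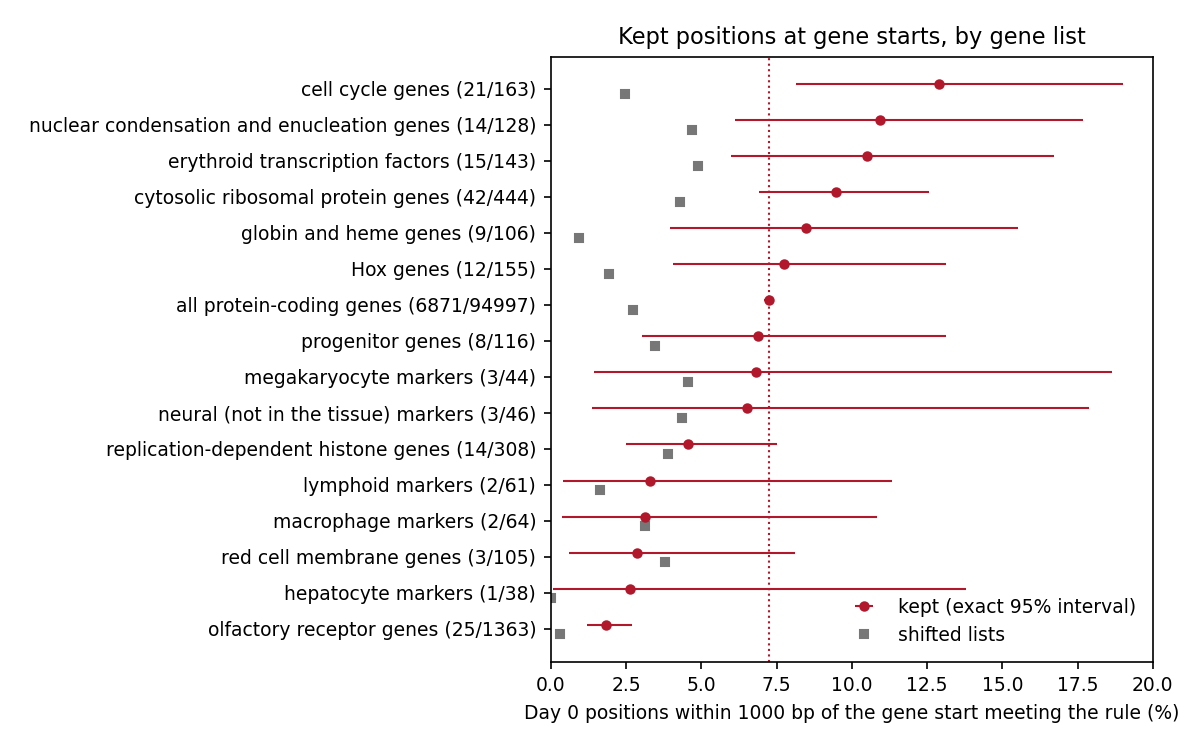
The percent of day 0 positions within 1000 bp of gene starts that were kept (red, exact 95% intervals) and that met the rule with shifted lists (grey) is plotted for each gene list, with kept and day 0 counts in brackets; the dotted line is the kept share of all genes, 7.23%. The interval of the cell cycle list, 8.16 to 19%, lies above the line, and that of the olfactory receptor list, 1.19 to 2.70%, lies below it.

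The summit values of kept positions differed little between days as a whole. The median log2 ratio was -0.12 for day 1 over day 0 and -0.18 for day 2 over day 0, and the direction of the second depends on scaling, since relative to the median of each list it is 0.11. Changes were therefore measured from these medians. A ratio of 2 or more after centring was found for day 1 over day 0 upwards in 4176 positions, 3.6% of the kept set, and downwards in 3738, 3.23%. For day 2 over day 0 it was found upwards in 4476, 3.86%, and downwards in 5119, 4.42%. The value of 2 is a rule of size and not a test.

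At gene starts the centred ratios leaned upwards on day 1. In the +1 zone, 683 kept positions, each now counted once, had a median centred log2 ratio of 0.32 for day 1 over day 0 (quartiles -0.12 and 0.75), with median summit values of 9.15, 10.7 and 8.92 on days 0, 1 and 2. The autosome medians averaged 0.34 ± 0.16 and were above 0 on 17 of 18 autosomes. In this zone 76 positions (11.1%) passed the size rule upwards on day 1 and 6 (0.878%) downwards. For day 2 over day 0 the median was 0.13, with 60 upwards and 22 downwards. In the +2 zone the medians were 0.26 and 0.14, with 87 of 796 upwards and 12 downwards on day 1. Within 1000 bp of starts they were 0.12 and 0.06. In gene-rich bins the medians were -0.02 and -0.11, and in gene-poor bins 0.04 and 0.09. Density in the +1 zone was also highest in the day 1 list, as given above, and its part in these values was not tested.

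By the rule, 5 positions near starts with the largest gain and 5 with the largest loss from day 0 to day 2 were taken among those with a summit value of 10 or more on every day. The gains were at Sp140, Ing2, Arfgap3, Cds2 and Rreb1, with centred log2 ratios between 1.03 and 0.86. At Sp140, the gene of a chromatin reader of immune cells, a position 508 bp inside the gene had summit values of 10.8, 12.2 and 19.6 on days 0, 1 and 2. At Ing2, the gene of a histone mark reader, a position 348 bp inside had 10.1, 13.6 and 17.9. The losses were at Tsks, Mtf1, Pdf, Ankzf1 and Nudc, with ratios between -0.71 and -0.52. At Mtf1, the gene of a metal-responsive transcription factor, a position 122 bp inside the gene had 17.1, 12.3 and 10.1, and at Nudc, the gene of a protein of nuclear movement and mitosis, a position 136 bp inside had 17.4, 10.4 and 10.7. In each of these 4 places the day 1 value lay between those of day 0 and day 2 or close to that of day 2.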

How the data were processed

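Micrococcal nuclease libraries of culture days 0, 1 and 2 were compared, with 1 library per day. The submitters' processing notes name Bowtie2, bedtools and the genome build mm10. Tool versions, the caller of positions and read totals were not given in the sources used here, so depth is known only as numbers of listed positions, 3735952, 2999502 and 4474045 on days 0, 1 and 2. The authors deposited 1 list per library. Per the file headers, each summit value is coverage signal that the authors smoothed and scaled. The fuzziness score is given as deposited by the authors, with no unit stated. The p-values deposited by the authors for summit and fuzziness were not used. Positions were called in each library apart, and centres within a list are at least 100 bp apart.

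A day 0 position was kept if the nearest day 1 and day 2 centres lay within 20 bp. For comparison, the day 1 list was shifted by 1000 bp and the day 2 list by 2000 bp. The matching code was run on simulated lists of widely spaced positions with planted matches. Such lists hold no chance matches, so matching in crowded lists was not tested. Gene spans came from RefSeq (GRCm38.p6, genes starting below 3 Mb left out), and the start of a gene is its most upstream entry in the RefSeq promoter table, matched for 16457 of 20560 genes. This entry can lie inside the annotated span, as at Plgrkt, Rexo1, Ggta1 and Bcl11a, and upstream and inside are counted from it. A position belongs to a zone by the distance of its centre. Gene-poor bins of 100 kb have at most 1 gene and gene-rich bins 14 or more genes in the surrounding 1 Mb. Intervals are exact Clopper-Pearson 95% intervals. They cover counting error only. The SD over autosomes is a spread within the libraries, and neighbouring positions are not independent. PCR copies cannot be told from separate molecules.

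The members, the gene lists and the rule for named genes were chosen with earlier results of these data known. The rule names the 12 genes with most kept positions near the start, the 6 longest runs, the 8 positions with the highest lowest-of-3-days summit value, the 5 genes with most positions but none kept, 2 genes per list, the 5 largest gains and losses from day 0 to day 2, and 6 promoters. Other genes are named beside their list after their values were seen. Alternatives were other tolerances, other shifts, stronger or sharper positions, lists of equal length, other windows and each later day alone. Python 3.11.15, numpy 2.4.6, pandas 2.3.3, scipy 1.17.1 and matplotlib 3.10.9 were used.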

Additional observations from a re-analysis of the deposited data

Results flagged for a closer look

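The rule covers autosomes, and chromosomes X and Y outside it also held positions that met it. Only on X did the share with shifted lists lie outside the interval of the kept share. On chromosome X, 343 of 45232 day 0 positions met the rule, 0.758% (95% interval 0.680 to 0.843%), against 113 or 0.25% with shifted lists. On chromosome Y, 31 of 1127 met it, 2.75% (1.88 to 3.88%), against 25 or 2.22% with shifted lists, which lies inside the interval. The mitochondrial genome listed 16 day 0 positions and 0 kept, which allows a share of up to 18.8% when 3 counts are taken as the limit of a count of 0 (exact 95% upper bound 20.6%). The X share lies below that of the autosomes, 3.14%, and the X list is sparse. The part of this sparseness was not tested.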

How the results depend on the processing

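No paired analysis was possible because each day has 1 library. Leaving out each autosome in turn gave 104026 to 113357 kept positions and a ratio of kept to shifted share of 1.90 to 1.92. The number kept was 40073 at a tolerance of 10 bp, 220669 at 30 bp, 3002 with summit values of at least 10 and 13311 among those at or below the median fuzziness. The ratio of kept to shifted share was 2.23 at 10 bp, 1.72 at 30 bp, 1.94 with shifts of 5000 and 10000 bp, 2.21 at summit values of 10 or more, 2.03 with lists of equal length and 3.26 with low fuzziness. With day 1 alone, or with day 2 alone, it was 1.30, both added after the data were seen. The kept share near starts over that elsewhere was 2.26 at 30 bp, 3.95 at summit values of 10 or more, 2.49 with equal lengths, 4.35 with low fuzziness, 2.59 in a window of 500 bp, 1.75 with day 1 alone and 1.52 with day 2 alone, the last 2 added later. The ratio of gene-rich to gene-poor kept shares was 11.4 at summit values of 10 or more, 8.55 with equal lengths and 5.40 with low fuzziness. The median log2 ratio of day 2 over day 0 was -0.086 at summit values of 10 or more, -0.15 with equal lengths and -0.16 with low fuzziness, and it reversed to 0.11 when each day was set against the median of its own list. Shifts of the other sign, matching of each position only once, leaving out the highest 0.1% of summit values, adding chromosome X, bins of 200 kb and, added later, all starts of a gene moved no value tried by more than its counting interval or 1.5 times, with ratios of kept to shifted share of 1.91 to 1.92. The cause of these differences was not tested, except that stricter filters leave fewer positions. Lists of equal length hold the 2967550 positions with the highest summit values of each day, ties broken by the lower fuzziness score. Spread between cultures cannot be measured with 1 library per day.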
